A study of Homo sapiens with 6 samples.

Results

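The genes described here are 10 genes of the NRF2 control system, taken from the deposited table by gene symbol. They are the transcription factors NFE2L2 (which encodes NRF2) and NFE2L1, the competing repressor BACH1, the small MAF partners MAFF, MAFG and MAFK, the inhibitor KEAP1 with its ubiquitin ligase scaffold CUL3, the KEAP1-binding autophagy receptor SQSTM1, and the oxidative stress responder OSGIN1. All 10 were found among 17269 listed genes, and all 10 passed the filter on low counts that left 13104 genes for testing. The set was put together with results of the knockdown comparison in view, so the members' differences between the groups are given as a description, with standard errors and without p-values.

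The RNA came from the human colorectal cancer line HCT116, grown in RPMI1640 with serum. The knockdown cells carried a short hairpin RNA against PRSS22, a secreted trypsin-like serine protease (shPRSS22, 3 libraries), and were set against cells labelled shCtrl with a genotype given as wild type (3 libraries). All cells were of the same line, and no drug or stress treatment is given for either group. The hairpin sequences, the number of hairpins, the time since their introduction and whether replicates were separate cultures are not given in the sources used here, so the spread between libraries of a group may be technical.

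NRF2 is a basic leucine zipper factor that binds antioxidant response elements as a heterodimer with a small MAF protein and turns on genes of glutathione, thioredoxin, NADPH and iron metabolism. In unstressed cells KEAP1 holds NRF2 and hands it to the CUL3 ubiquitin ligase for destruction by the proteasome, and oxidants, electrophiles or SQSTM1 bodies that bind KEAP1 interrupt this. Because much of this control acts on proteins, transcript levels of NFE2L2 and KEAP1 do not measure NRF2 activity. BACH1 occupies the same elements with the same small MAF partners and represses them until heme displaces it.

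PRSS22 was present at 3.09, 3.16 and 2.61 CPM in the shPRSS22 libraries, against 10.1, 9.38 and 10.1 CPM in the shCtrl libraries (log2 fold change -1.74, SE 0.14, edgeR quasi-likelihood test, adjusted p = 4.78e-12). CPM is the count per 1000000 of a library's TMM-scaled total. Library totals were 15332449 to 15466647 estimated counts in shPRSS22 and 14920523 to 15164328 in shCtrl. Of the 9 epithelial markers listed, 6 were above 1 TPM in every library (EPCAM, CDH1, KRT8, KRT18, KRT19 and CDX2). VIL1, CEACAM5 and LGALS4 were highest in shPRSS22 replicate 1, at 0.39, 0.82 and 1.87 TPM. In every other library these were at or below 0.26 TPM. Markers of fibroblasts, immune and endothelial cells summed to 9.24 to 11.9 TPM over 13 genes in shPRSS22 and 7.70 to 10.4 TPM in shCtrl, mostly from COL1A1, and CDH5 had no count in any library. In shPRSS22 replicate 1, COL1A1 (9.71 TPM), LYZ (0.80 TPM), COL3A1, PDGFRB, DCN and LUM were also highest. Others of these markers, such as PECAM1, VWF and KDR, were highest in another library. The cause was not tested. In such bulk libraries a change in the share of cells that express a gene and a change in RNA per cell cannot be told apart.

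Promoter sequence was examined first for the letters that these factors bind. RefSeq windows of 300 bases around annotated starts (GRCh38.p14) were available for 9 of the 10 genes, 18 windows in all; MAFK had no entry. Both strands were searched for TGACNNNGC (the core of the antioxidant response element), TGACTCA (an AP-1 type site, which with a following GC would also be a core match) and TGCTGAC (the left arm of the MAF recognition element, which can overlap the other two). The stretches with a match are shown because they are where these letters stand in front of the members; capitals mark the matched letters, in the direction of the gene. The OSGIN1 stretch ran from 140 to 51 bases before the start and touched no annotated exon; elsewhere the wider surroundings touched an exon of another transcript and only the match with 6 bases on each side is shown.
OSGIN1, chr16:83953100-83953189, plus strand: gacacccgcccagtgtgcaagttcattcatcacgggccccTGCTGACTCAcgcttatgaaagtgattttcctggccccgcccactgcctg
KEAP1, chr19:10502811-10502831, minus strand: ttattgTGACACGGCgggcgc
KEAP1, chr19:10502788-10502808, minus strand: ggctctGCTTAGTCAtggtga
MAFF, chr22:38201866-38201886, plus strand: caggggGCGGGGTCAtacggg
BACH1, chr21:29298868-29298886, plus strand: aaggagTGAGTCAcctgac
SQSTM1, chr5:179820701-179820719, plus strand: agagggGTCAGCAatgagg

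In the OSGIN1 window the left arm and the AP-1 type site overlapped in 1 run that began 100 bases before the start, and no core match was present. KEAP1 held core matches on both strands within 60 bases of its downstream start, and MAFF held 1 core match on the minus strand. Core matches stood in 2 of the 18 member windows (11.1%), against 13.3% of all 35116 RefSeq windows and 9 of 24 windows (37.5%) of the NRF2 target genes listed further on. AP-1 type matches stood in 11.1% of member windows, against 4.95% of all windows, and left arm matches in 11.1%, against 4.19%. Each of these member shares is 2 windows, so the shares differ from all windows by few matches. Counted per gene with a window, core matches stood in 2 of 9 members (22.2%). The share was 16.1% over all RefSeq genes and 19.4% over tested genes, so for core matches the direction depends on the unit counted. The windows of NFE2L2, NFE2L1, CUL3 and MAFG held none of the 3 letter runs, which says nothing of elements farther out. Member windows were rich in G and C, with a median of 73.2% against 58.7% over all windows.

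All 10 transcripts were higher in the knockdown cells, and for each of them every shPRSS22 library lay above every shCtrl library. Among all tested genes, 24.2% showed such a separation upward. In the fit over all genes 8 of the 10 passed an adjusted p of 0.05 upward and 0 downward, where 19.9% of all tested genes were called higher (2603 of 13104) and 19.3% lower, 39.1% together. NFE2L1 and BACH1 did not pass. The members' median log2 fold change was 0.27, beside -0.0056 over all tested genes, whose quartiles were -0.15 and 0.13. These counts follow from a set chosen on this comparison and carry no weight of their own. The spread of sizes within the set was wide: OSGIN1 stood at 2.79-fold and SQSTM1 at 1.66-fold, MAFG, KEAP1 and MAFF between 1.28-fold and 1.35-fold, and the remaining 5 between 1.05-fold and 1.13-fold.

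**Figure D1:**
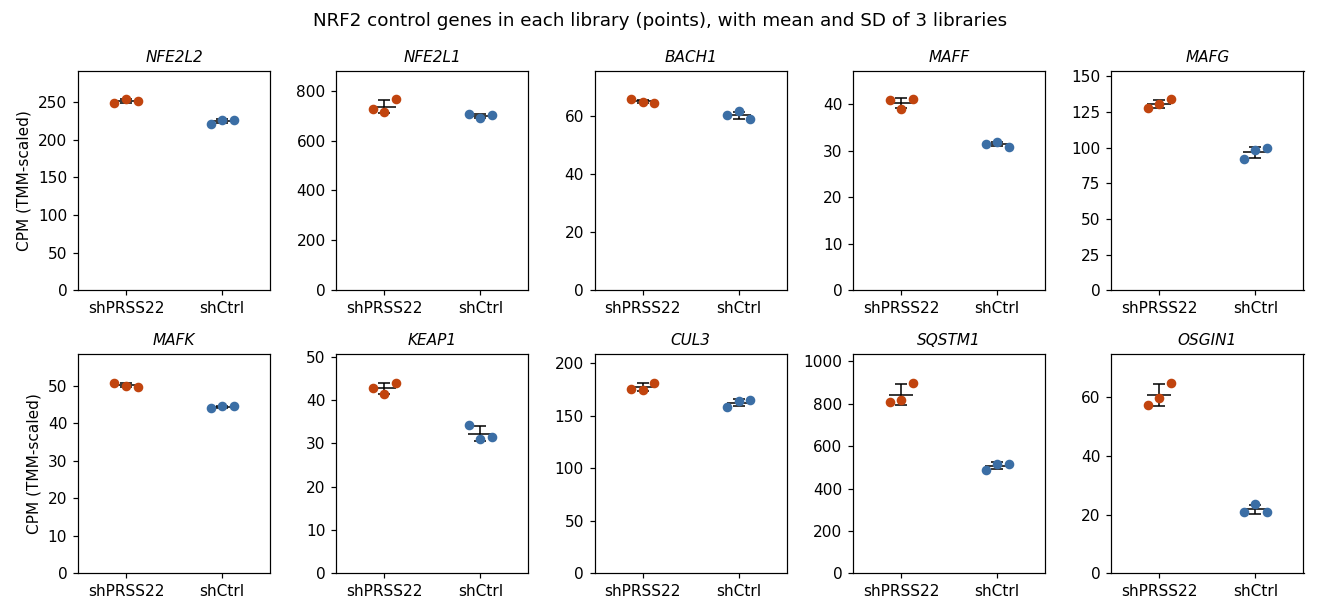
CPM of each of the 10 genes in each library (points; shPRSS22 left, shCtrl right), with the mean and SD of 3 libraries; each vertical axis starts at 0. Relative to the shCtrl level the difference is largest for OSGIN1 (57.4 to 65.0 CPM in shPRSS22, 20.8 to 23.6 CPM in shCtrl) and smallest for NFE2L1.

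NFE2L2, the NRF2 gene itself, was measured at 249, 254 and 252 CPM in shPRSS22 replicates 1 to 3, against 222, 226 and 227 CPM in shCtrl replicates 1 to 3. The lowest knockdown library exceeded the highest control library by 9.87%. The group means were 251.7 ± 2.35 CPM in shPRSS22 and 224.9 ± 2.85 CPM in shCtrl (SD, n = 3 each), a log2 fold change of 0.16 (SE 0.032). This is a tight but small difference, larger than the spread within either group. Most tested genes lay below it, but 2763 genes had a higher log2 fold change.

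NFE2L1 encodes a related factor that is made in the endoplasmic reticulum membrane and, once cleaved, induces proteasome genes. Its level was 727, 714 and 765 CPM in shPRSS22 replicates 1 to 3, against 707, 692 and 701 CPM in shCtrl replicates 1 to 3. The groups did not overlap, but the lowest shPRSS22 library was only 1.05% above the highest shCtrl library. The log2 fold change was 0.07 (SE 0.034), the smallest of the set, and 1 knockdown library, replicate 3, lay well above the other two. Without shPRSS22 replicate 3 the value was 0.043, and without shPRSS22 replicate 2 it was 0.096 and passed the threshold over all genes.

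BACH1, the heme-sensitive repressor, stood at 65.6, 64.8 and 64.4 CPM in shPRSS22 replicates 1 to 3, against 60.2, 61.4 and 58.9 CPM in shCtrl replicates 1 to 3. The groups were separate by 4.86% at their nearest libraries, and the log2 fold change was 0.11 (SE 0.045). The transcript of the repressor was thus not lower in the knockdown cells. It fell just short of the threshold over all genes in the main edgeR fit. It passed in 2 of 12 alternatives, 1 of them edgeR with DESeq2 size factors in place of TMM (log2 fold change 0.112). It did not pass with DESeq2 itself or with limma on TPM.

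The small MAF proteins carry no activation domain: paired with NRF2 they form an activator, paired with BACH1 or with each other a repressor. MAFG was at 128, 131 and 134 CPM in shPRSS22 replicates 1 to 3, against 92.2, 98.1 and 99.5 CPM in shCtrl replicates 1 to 3. The group means were 130.7 ± 3.01 CPM in shPRSS22 and 96.6 ± 3.89 CPM in shCtrl (SD, n = 3 each), and the log2 fold change was 0.44 (SE 0.039). MAFG, itself known as an NRF2 target, showed the third largest difference of the set.

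MAFF, which is also induced by several stress and growth signals, was at 40.8, 39.0 and 41.01 CPM in the shPRSS22 libraries, against 31.5, 31.9 and 30.9 CPM in the shCtrl libraries. Its log2 fold change was 0.36 (SE 0.056). MAFK was at 50.9, 49.95 and 49.8 CPM in the shPRSS22 libraries, against 44.2, 44.7 and 44.5 CPM in the shCtrl libraries. Its log2 fold change was smaller, 0.18 (SE 0.050), although its libraries were the most alike of any member. The 3 partners therefore did not move by the same amount. MAFK counts carried decimals in all 6 libraries, so some of its reads were shared with other genes and divided by estimate.

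KEAP1, the sensor that holds NRF2, was at 42.7, 41.3 and 44.0 CPM in shPRSS22 replicates 1 to 3, against 34.3, 31.1 and 31.4 CPM in shCtrl replicates 1 to 3. The group means were 42.7 ± 1.34 CPM in shPRSS22 and 32.2 ± 1.74 CPM in shCtrl (SD, n = 3 each), with a log2 fold change of 0.40 (SE 0.057). The inhibitor's transcript was thus higher together with that of the factor it inhibits, and by more. CUL3, the scaffold that joins KEAP1 to the ubiquitin-transferring RING protein, was at 175, 175 and 182 CPM in the shPRSS22 libraries, against 159, 164 and 165 CPM in the shCtrl libraries. Its log2 fold change was 0.12 (SE 0.035), smaller than that of KEAP1.

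SQSTM1 encodes p62, a receptor of selective autophagy that binds KEAP1 through a short motif and is itself a transcriptional target of NRF2. It was measured at 808, 820.0 and 899.8 CPM in shPRSS22 replicates 1 to 3, against 488, 516 and 517 CPM in shCtrl replicates 1 to 3. The lowest knockdown library was 56.3% above the highest control library, and the log2 fold change was 0.73 (SE 0.038). Replicate 3 stood above the other knockdown libraries, by less than the gap between the groups. Only 188 tested genes had a higher log2 fold change. Its counts also carried decimals in all 6 libraries.

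OSGIN1 encodes an oxidative stress induced growth inhibitor that has been described as an NRF2 and p53 responsive gene. It was at 57.4, 59.9 and 65.0 CPM in shPRSS22 replicates 1 to 3, against 20.8, 23.6 and 20.9 CPM in shCtrl replicates 1 to 3. The group means were 60.8 ± 3.86 CPM in shPRSS22 and 21.8 ± 1.55 CPM in shCtrl (SD, n = 3 each), a log2 fold change of 1.48 (SE 0.062). Only 25 of the 13104 tested genes had a higher log2 fold change. The relative OSGIN2, which is no member of the set, rose less, to 123 ± 5.42 CPM in shPRSS22 against 98.2 ± 1.53 CPM in shCtrl (log2 fold change 0.33, SE 0.040, edgeR quasi-likelihood test, adjusted p = 6.01e-08).

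**Figure D2:**
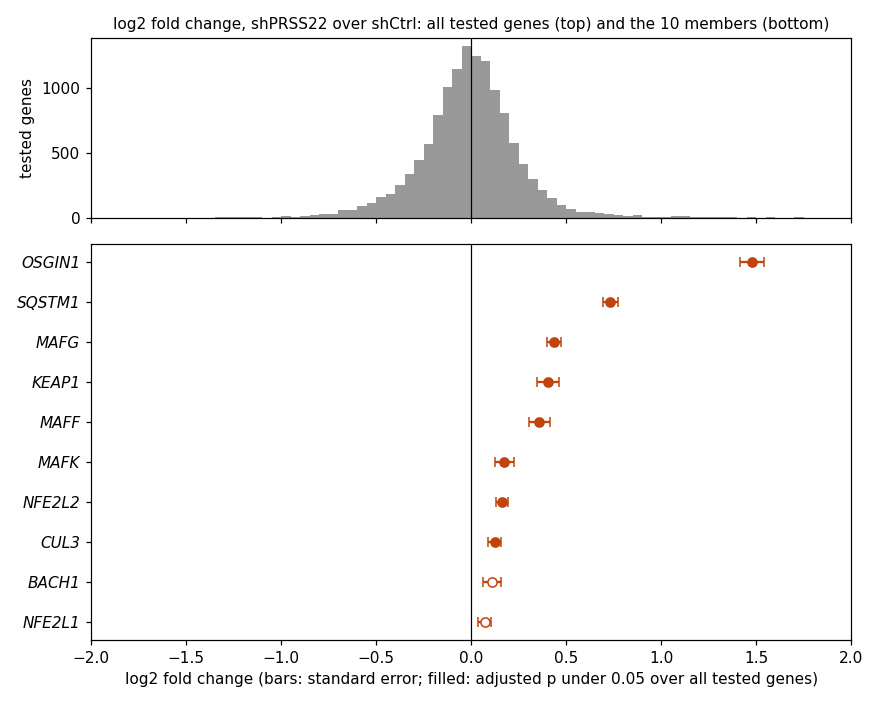
Log2 fold change of shPRSS22 over shCtrl for all tested genes (top, a histogram that leaves out 8 genes beyond 2 in size) and for the 10 members (bottom, with standard errors; open circles did not pass the threshold over all genes). All members lie right of 0, from NFE2L1 at 0.07 to OSGIN1 at 1.48.

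Every member is annotated as a protein-coding gene in GENCODE 29 (GRCh38). NFE2L2 (chr2:177227595-177392697) and CUL3 (chr2:224470150-224585397) are both on the minus strand of chromosome 2, NFE2L1 (chr17:48048329-48061487, plus) and MAFG (chr17:81918270-81927714, minus) are far apart on chromosome 17. The other 6 lie on chromosomes of their own: SQSTM1 (chr5:179806398-179838078, plus), MAFK (chr7:1530714-1543043, plus), OSGIN1 (chr16:83948282-83966332, plus), KEAP1 (chr19:10486120-10503741, minus), BACH1 (chr21:29194071-29630751, plus) and MAFF (chr22:38200767-38216511, plus). No strand marking is described for these libraries, so reads from overlapping genes cannot be assigned by strand. MAFG overlaps SIRT7 on the same strand (log2 fold change 0.20), and MAFK overlaps TMEM184A on the opposite strand (0.31). AGPS (0.12), on the opposite strand, overlaps the annotated start of NFE2L2. These 3 neighbours were called higher as well, each at a lower CPM than its member. The neighbours of SQSTM1, MGAT4B (-0.0065) and MRNIP (-0.100), and that of MAFF, PLA2G6 (-0.022), were not called. The part of shared reads in the members' values was not tested.

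Levels of different genes can be compared only per length, and for this the deposited TPM values were used. In shCtrl the order of mean levels was SQSTM1 at 319 ± 10.8 TPM, NFE2L1 at 259.6 ± 5.47, NFE2L2 at 165 ± 2.80, CUL3 at 69.8 ± 1.86, MAFG at 32.4 ± 1.43, MAFF at 24.2 ± 0.255, MAFK at 23.2 ± 0.336, KEAP1 at 23.1 ± 1.23, OSGIN1 at 21.5 ± 1.41 and BACH1 at 18.0 ± 0.307 TPM (SD, n = 3 each). The libraries of KEAP1 overlapped with those of MAFF, MAFK and OSGIN1, and those of MAFK with those of OSGIN1, so the order among these is not resolved beyond MAFF standing above MAFK and OSGIN1. SQSTM1 exceeded 98.0% of all listed genes in shCtrl and NFE2L2 95.7%, while BACH1 exceeded 63.7%.

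In shPRSS22 the order changed in 1 main respect: OSGIN1 was the fifth most abundant at 60.4 ± 4.19 TPM, above MAFG at 44.2 ± 1.38 TPM, where in shCtrl it was the ninth. MAFF at 31.3 ± 1.51 TPM and KEAP1 at 30.8 ± 1.57 TPM overlapped, and BACH1 stayed lowest at 19.5 ± 0.541 TPM. SQSTM1, at 534 ± 36.8 TPM, was 1.95 times NFE2L1 in the knockdown cells, against 1.23 times in shCtrl. The first 4 places were held by the same genes in both groups.

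**Figure D3:**
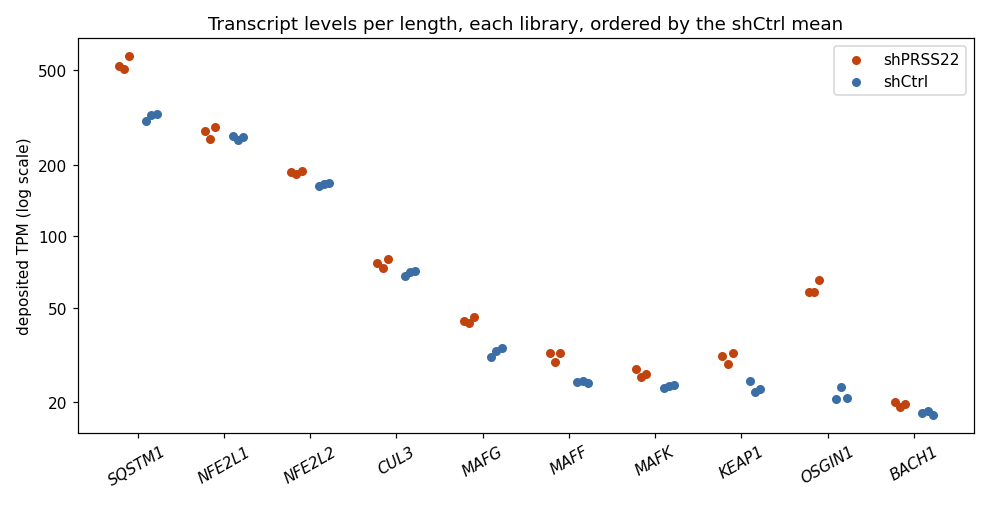
Deposited TPM of each member in each library (log axis; orange, shPRSS22, left; blue, shCtrl, right), ordered by the shCtrl mean. OSGIN1 is at 60.4 TPM on average in shPRSS22 and at 21.5 TPM in shCtrl, and SQSTM1 leads in both groups.

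Ratios of transcripts whose products act on each other were compared in each library. The NFE2L2 to KEAP1 ratio was 6.005, 6.30 and 5.88 in shPRSS22 replicates 1 to 3, against 6.63, 7.47 and 7.40 in shCtrl replicates 1 to 3. The ratio was lower in every knockdown library, since KEAP1 differed by more than NFE2L2. CUL3 per KEAP1 was also lower, at 2.50 ± 0.040 in shPRSS22 and 3.03 ± 0.231 in shCtrl (SD, n = 3 each).

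SQSTM1 per KEAP1 went the other way, with 16.7, 17.4 and 17.9 in shPRSS22, against 12.5, 14.6 and 14.4 in shCtrl. The transcript of this KEAP1-binding receptor thus exceeded that of KEAP1 by a wider margin in the knockdown cells. The NFE2L2 to BACH1 ratio was 9.33, 9.64 and 9.64 in shPRSS22 replicates 1 to 3, against 9.05, 9.03 and 9.48 in shCtrl replicates 1 to 3, and here the groups overlapped. The proportion of activator to repressor transcript thus did not separate the groups.

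The summed level of the 3 small MAF transcripts was 104, 97.9 and 104 TPM in the shPRSS22 libraries, against 78.0, 80.5 and 81.1 TPM in the shCtrl libraries. Per NFE2L2 transcript the sum was 0.547 ± 0.010 in shPRSS22 and 0.484 ± 0.0032 in shCtrl, and per BACH1 transcript it was 5.21 ± 0.089 in shPRSS22 and 4.44 ± 0.124 in shCtrl (SD, n = 3 each). The partners' transcripts were thus higher relative to both NFE2L2 and BACH1. MAFG made up 43.4% ± 0.928 of the sum in shPRSS22 and 40.6% ± 0.975 in shCtrl. MAFK made up 25.9% ± 0.748 in shPRSS22 and 29.1% ± 0.191 in shCtrl, and MAFF 30.7% ± 0.456 in shPRSS22 and 30.4% ± 0.809 in shCtrl. The shares of MAFG and MAFK did not overlap between groups, while that of MAFF did. These are ratios of RNA and say nothing of the proteins.

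**Figure D4:**
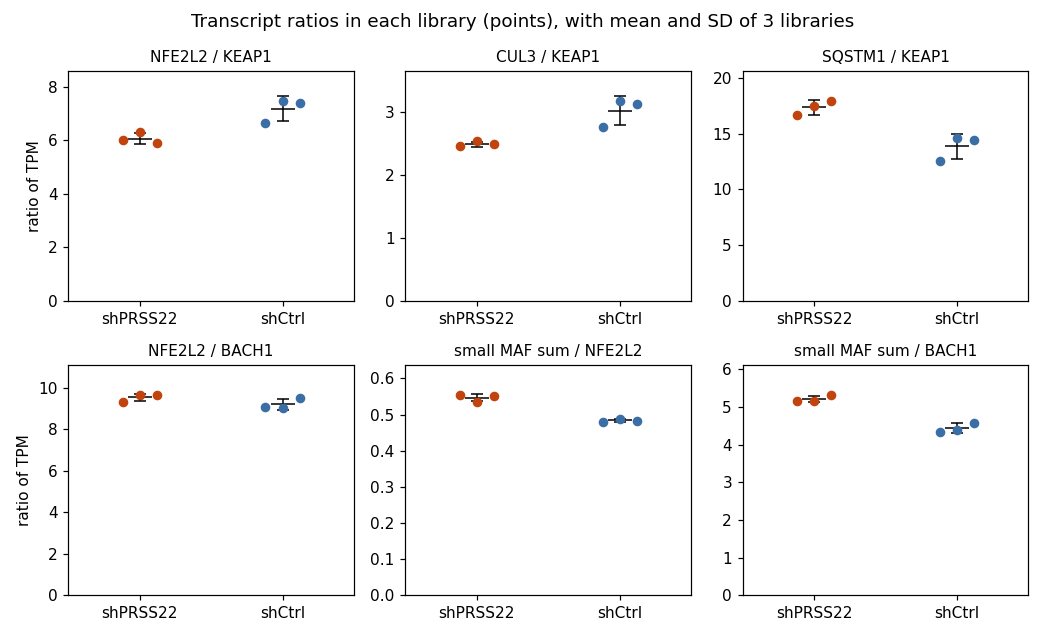
Ratios of deposited TPM in each library (points; shPRSS22 left, shCtrl right) with the mean and SD of 3 libraries; axes start at 0. NFE2L2 to KEAP1 and CUL3 to KEAP1 are lower in shPRSS22, SQSTM1 to KEAP1 and both small MAF ratios are higher, and NFE2L2 to BACH1 overlaps.

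Within groups the members were measured with different precision. The pooled within-group SD on the log2 scale was 0.013 for MAFK, 0.016 for NFE2L2 and 0.023 for BACH1, where the median over the 401 tested genes nearest in level was 0.060, 0.038 and 0.053. It was largest for OSGIN1 at 0.096 and SQSTM1 at 0.068, whose nearest genes (401 and 363) had medians of 0.065 and 0.040. The 2 members with the largest differences between groups thus also varied most between replicates, and in both the highest value was that of shPRSS22 replicate 3.

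The tested genes most like the 3 members with the largest difference were found by the root mean square distance of centred log2 CPM over the 6 libraries, among genes with a mean of at least 5 CPM. For OSGIN1 they were INHBE (distance 0.069), GRAMD1B (0.086) and MMP1 (0.095). For SQSTM1 they were ATF3 (0.034), PHOSPHO1 (0.036) and CLGN (0.040), and for MAFG they were ARL2BP (0.018), TRAM1 (0.021) and FBXO42 (0.022). The distance contains the difference between the groups, so genes with a like log2 fold change come out near. In the order named, the log2 fold changes were 1.56, 1.38 and 1.36, then 0.70, 0.76 and 0.70, then 0.43, 0.42 and 0.44. Shared control of these genes was not tested.

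Further genes of the system were counted in lists and tested in the same fit over all genes, where 19.9% of genes were called higher and 19.3% lower. All these lists were chosen with earlier results of these data known, so their counts are a description. The 5 relatives of the NRF2 and MAF factors that were tested and are reported here passed the threshold in 0 cases in either direction with edgeR or DESeq2, and limma, which took 3 of them (NFE2L3, BACH2 and MAFA), also called 0; at an unadjusted edgeR p under 0.05, 0 were higher and 2 lower. NFE2L3, the abundant one, was at 139 ± 5.25 CPM in shPRSS22 and 147.6 ± 3.95 CPM in shCtrl (log2 fold change -0.09, adjusted p = 0.0626), and every knockdown library lay below every control library. BACH2 was at 10.96 ± 0.885 CPM in shPRSS22 and 12.6 ± 1.00 CPM in shCtrl (log2 fold change -0.21, adjusted p = 0.0958), and MAFA at 4.27 ± 0.5003 CPM in shPRSS22 and 3.55 ± 0.999 CPM in shCtrl (0.27, adjusted p = 0.25). NFE2 (0.06) and NRL (0.22) were below 2 CPM in every library, and MAF, with 4 counts over the shPRSS22 libraries and 5 over the shCtrl libraries, was not tested. NFE2L3 passed downward without shPRSS22 replicate 2 (adjusted p = 0.0382) or shCtrl replicate 2 (0.050), BACH2 downward without shPRSS22 replicate 3 (0.0492), and MAFA upward without shCtrl replicate 2 (0.040).

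The next list held machinery that degrades NRF2, namely the neddylated cullin ligases and the GSK3 and beta-TrCP route. Of 17 tested genes 4 rose, a share near the 19.9% of all tested genes, and DESeq2 called 2 higher. With edgeR 0 fell (0 also at an unadjusted p under 0.05 and in DESeq2), and the median log2 fold change was -0.0015. DCUN1D1, which promotes cullin neddylation, rose to 82.3 ± 2.69 CPM in shPRSS22 against 70.7 ± 2.02 CPM in shCtrl (log2 fold change 0.22, adjusted p = 1.51e-04). FBXW11, a beta-TrCP substrate receptor, rose by 0.19 (adjusted p = 1.33e-04). Without shCtrl replicate 1, 2 of the 4 passed.

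Among 8 other proteins known to bind KEAP1, 0 rose (0 also at an unadjusted p under 0.05 and in DESeq2). With edgeR 2 fell, a share near the 19.3% of all tested genes called lower. At an unadjusted edgeR p under 0.05, 4 were lower, and leaving out 1 library 2 to 3 passed as lower. The median was -0.12. PTMA, which encodes the nuclear protein prothymosin alpha and has many pseudogenes, fell to 1081 ± 28.4 CPM in shPRSS22 against 1360.4 ± 21.3 CPM in shCtrl (log2 fold change -0.33, adjusted p = 3.01e-09). FAM117B fell by 0.27 on the log2 scale (adjusted p = 4.24e-04).

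NRF2 cofactors and repressors were mixed, with 3 of 12 higher, 4 lower and a median of -0.038. Over all tested genes 19.9% were called higher and 19.3% lower. NCOA3, a nuclear receptor coactivator, rose to 159 ± 8.32 CPM in shPRSS22 against 112.7 ± 1.98 CPM in shCtrl (log2 fold change 0.50, adjusted p = 5.92e-12). FYN, a kinase linked to nuclear export of NRF2, rose by 0.35 (adjusted p = 2.10e-07). SMARCA4, a chromatin remodelling ATPase, fell by 0.21 on the log2 scale (adjusted p = 3.39e-04), and MED16, a Mediator subunit, by 0.19 (adjusted p = 0.0389). The count lower was 2 without shPRSS22 replicate 1 or without shCtrl replicate 1. MED16 lost its call without shPRSS22 replicate 1 (adjusted p = 0.080), shPRSS22 replicate 3 (0.107) or shCtrl replicate 1 (0.333), and with DESeq2 (0.181) or limma on TPM (0.109). DESeq2 and limma each called 1 of these genes lower.

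Genes that process or turn over the NFE2L1 protein were tested in 9 cases, of which 1 rose and 3 fell (median -0.0091). Beside these counts stand 19.9% called higher and 19.3% called lower over all tested genes. FAF2, an endoplasmic reticulum factor that recruits the VCP segregase, rose by 0.17 (adjusted p = 6.35e-04). NGLY1, the glycanase that NFE2L1 needs for its activation, fell to 22.7 ± 1.03 CPM in shPRSS22 against 25.5 ± 1.54 CPM in shCtrl (log2 fold change -0.17, adjusted p = 0.0472). OGT, a glycosyltransferase, fell by 0.13 on the log2 scale (adjusted p = 0.00208). The count lower was 1 without shPRSS22 replicate 2, shCtrl replicate 2 or shCtrl replicate 3. NGLY1 lost its call without shPRSS22 replicate 2 (adjusted p = 0.0934), shPRSS22 replicate 3 (0.152), shCtrl replicate 2 (0.172) or shCtrl replicate 3 (0.154), and with DESeq2 (0.213), limma on TPM (0.108) or no filter on low counts (0.051).

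Proteasome subunits, whose genes NFE2L1 can induce, rose in 14 of 31 tested cases and fell in 1, by small amounts (median 0.083). Among all tested genes 19.9% were called higher and 19.3% lower. DESeq2 called 10 of the subunits higher and 1 lower, and leaving out 1 library 11 to 15 passed as higher. PSMD12 rose to 213.5 ± 7.71 CPM in shPRSS22 against 179.5 ± 6.10 CPM in shCtrl (log2 fold change 0.25, adjusted p = 1.28e-06) and PSMD14 by 0.21. PSMD3 fell by 0.13 on the log2 scale (adjusted p = 0.00396).

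Partners of SQSTM1 and fellow autophagy receptors rose in 9 of 15 tested cases, with a median of 0.13. They fell in 0 cases (0 also at an unadjusted p under 0.05 and in DESeq2). Of all tested genes 19.9% were called higher and 19.3% lower. DESeq2 called 7 genes of this list higher, and leaving out 1 library 7 to 10 passed as higher. MAP1LC3B, the ubiquitin-like protein to which SQSTM1 binds on the autophagosome, rose to 710.4 ± 12.6 CPM in shPRSS22 against 473 ± 14.1 CPM in shCtrl (log2 fold change 0.59, adjusted p = 3.55e-15). TBK1, a kinase that phosphorylates SQSTM1, rose to 73.9 ± 5.79 CPM in shPRSS22 against 53.5 ± 2.71 CPM in shCtrl (0.47, adjusted p = 3.71e-08).

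NRF2 target genes, a list that was known from earlier results to be higher, rose in 22 of 25 tested cases, with a median of 0.58. They fell in 0 cases (1 at an unadjusted p under 0.05, 0 in DESeq2). The shares of all tested genes were 19.9% called higher and 19.3% called lower. Among the genes of the list that passed the filter on low counts the largest rise was that of AKR1C3 (1.32, adjusted p = 3.29e-10), a reductase whose close relatives may share its reads. The related gene AKR1B10 had too few counts to pass that filter. Without the filter edgeR called it higher, at 1.84 (adjusted p = 0.00776), a value that rests on few counts. TXNRD1, cytosolic thioredoxin reductase, rose to 1288 ± 50.7 CPM in shPRSS22 against 537 ± 8.35 CPM in shCtrl (1.26, adjusted p = 4.91e-23). OSGIN1 alone among the 10 members had a larger log2 fold change than TXNRD1, and NFE2L2, at 0.16, lay below the target list's median. Without shCtrl replicate 3, ABCC3, a multidrug transporter, passed as lower (-0.157, adjusted p = 0.0144).

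**Figure D5:**
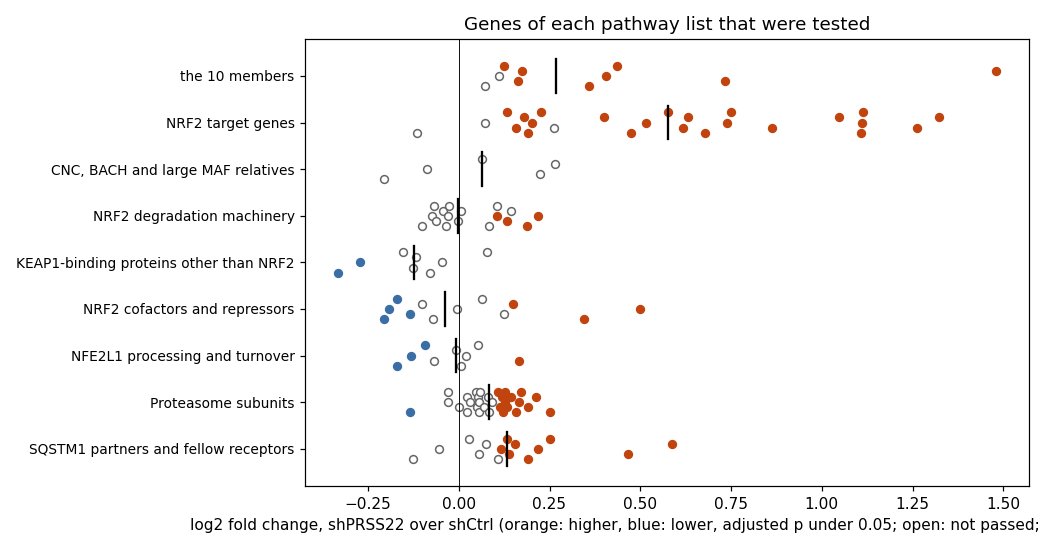
Log2 fold change of shPRSS22 over shCtrl for each tested gene of the 10 members and of 8 pathway lists (orange, higher, and blue, lower, at an adjusted p under 0.05; open, not passed; bars, medians). The median is 0.58 for NRF2 target genes and 0.27 for the members, and lies between -0.12 and 0.13 for the other 7 lists.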

How the data were processed

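Poly(A) RNA of 6 libraries was measured. The members and gene lists were chosen with earlier results of these data known. The authors deposited 1 table of 17269 genes with estimated counts, FPKM, TPM and scaled counts (a signal) per library and their own log2 fold change with p-value and q-value, per the file headers. Per the submitters' processing notes, RSEM 1.3.1, Bowtie2 2.3.4.3, HISAT2 2.2.1 and DESeq2 1.4.5 were used with build GRCh38.p13; their roles are not given in the sources used here. Estimated counts divide shared reads among like genes; 2081 to 2162 genes per library carried decimals.

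Counts were rounded and tested with edgeR 4.0.16 in R 4.3.3 (robust quasi-likelihood F test, TMM, filterByExpr, 13104 genes, two-sided, Benjamini-Hochberg over all of them, threshold 0.05). The test was also run on simulated data, which held no differences as small as the smallest among the members. SE is the log2 fold change divided by the square root of F. The common coefficient of variation beyond counting noise was 2.97%. Replicates of a group differed by more than counting noise (chi-square per gene 1.80 to 3.05). Alternatives used DESeq2 1.42.0, limma 3.58.1 on log2(TPM + 1), other filters and scaling, a replicate block, and leaving out each library. The authors' deposited table gives positive log2 fold changes for all 10 members and q-values under 0.05 for 7, not for NFE2L1, BACH1 and MAFK. The deposited FPKM served only for the ratio of SQSTM1 to BACH1, and the scaled counts were not used. 1 gene of the list of relatives is not reported here and was left out of its counts. Named genes are the members, PRSS22, the other relatives and the nearest profiles. From each list up to 2 called genes per direction with the largest change at 1 CPM or more were named. Neighbours on the genome, EPCAM and the other markers, ABCC3, AKR1B10 and SEL1L were named beside these. Promoters are RefSeq windows (GRCh38.p14) and gene positions GENCODE 29 (GRCh38).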

Additional observations from a re-analysis of the deposited data

How the results depend on the processing

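All 10 members kept a positive log2 fold change in each of the 12 alternatives, and the 8 that passed the threshold over all genes passed it in each. The alternatives refit the same libraries for a set chosen on this comparison. They show the dependence on processing only and are no separate support. OSGIN1 ranged from 1.43 to 1.54, SQSTM1 from 0.68 to 0.76, MAFG from 0.40 to 0.46 and KEAP1 from 0.38 to 0.45. With the replicate number as a block, NFE2L1 (0.071) and BACH1 (0.110) passed too, and 2782 genes were higher and 2747 lower. The numbers do not pair the libraries by the labels: the deviations of same-numbered libraries correlated at 0.0863, 0.0842 and 0.173, in each case best with their own number, which is a hint from the data only. DESeq2 called 1742 genes higher and 1605 lower; in it 2 genes of the degradation list rose and 1 cofactor fell. Limma on TPM gave 1 cofactor and 0 NFE2L1 processing genes lower, with the loss of NGLY1, SEL1L and OGT. The block gave 1 NRF2 target and 1 relative lower, and no filter on low counts 1 NRF2 target lower and AKR1B10 higher (1.84). Leaving out 1 library, the targets lower ranged from 0 to 1, the relatives higher from 0 to 1 and lower from 0 to 1, the degradation genes higher from 2 to 5, the cofactors lower from 2 to 4 and the NFE2L1 processing genes lower from 1 to 3. Leaving out 1 library, NFE2 ranged from -0.225 to 0.429, at few counts, and changed sign without shPRSS22 replicate 2 (-0.225), shCtrl replicate 1 (-0.083) or shCtrl replicate 2 (-0.091). The cause of these changes was not tested. The ratio of SQSTM1 to BACH1 in shCtrl was 4.15 on the log2 scale with TPM and with FPKM. Within a library TPM and FPKM differ only by a constant factor, so this ratio had to come out alike. It is no check on the order of member levels.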
